A study of Mus musculus with 8 samples.

Results

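Circular RNAs (circRNAs) of 6 genes for regulators of transcription were followed in injured and control mouse kidneys: Thrb, Glis3, Nfix, Bnc2, Cbfb and Aff3. Members were all rows of the circRNA table that carried one of these host gene names, which gave 21 of 6315 circRNAs: 8 of Glis3, 4 of Bnc2, 3 each of Thrb and Cbfb, 2 of Nfix and 1 of Aff3. The hosts were chosen by their known role and with the circRNA fold changes against control in view, as measured in these same libraries. Fold changes, calls and adjusted p-values against control are therefore a description of these libraries and support nothing beyond them.

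The 8 libraries were total RNA from kidneys of C57BL/6L mice aged 8 to 10 weeks. The groups were UUO (unilateral ureteral obstruction, day 5, 3 libraries), AC (labelled acute-chronic, day 5, 2 libraries) and control (3 libraries). The series design names ischaemia/reperfusion, obstruction and sham operation, whereas the control titles say WT, so whether the controls had a sham operation is not settled by the labels. Nothing states that each library came from its own animal, so the spread behind each p-value is that between libraries and may be technical.

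A circRNA forms when a downstream splice donor joins an upstream acceptor, which closes 1 or more exons of a host gene into a loop. Its abundance depends on how much the host is transcribed, on how often the loop is made and on how slowly it decays, and it need not follow the linear mRNA. Linear transcripts of the 6 hosts were not analysed here. In bulk kidney RNA, fewer cells of a type and less circRNA per cell cannot be told apart. The hosts have different roles: Thrb encodes thyroid hormone receptor beta, a nuclear receptor that acts on thyroid hormone target genes. Glis3 encodes a Krüppel-like zinc finger factor, loss of which gives cystic kidneys in mice. Nfix belongs to the nuclear factor I family of DNA-binding proteins, and Bnc2 (basonuclin 2) is a zinc finger protein. Cbfb and Aff3 act without being classical sequence-specific factors: Cbfb is the partner that strengthens DNA binding of RUNX proteins, and Aff3 is a member of the AF4/FMR2 family, whose proteins serve as scaffolds of super elongation complexes.

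Library totals ranged from 40865 to 65145 circRNA counts, with the highest total in control replicate 2. The 6 hosts together took 2.48 ± 0.140% of circRNA counts in UUO (SD, n = 3), 2.28 ± 0.0578% in AC (SD, n = 2) and 1.99 ± 0.0672% in control (SD, n = 3). Of the 21 circRNAs, 13 passed the filter on low counts, and these held 9092 of 9260 member counts. The field of the table headed experimental evidence was filled for 7 of the 21, all 7 among the 13 tested, and for 1084 of the 6315 rows. The table gives no coordinates of the back-spliced exons, so the position and sequence of each loop are not given here. Levels were not compared between genes, since loop lengths are not known. Levels are in CPM, the circRNA count scaled by the TMM-normalised total of its library, and adjusted p-values are from edgeR's quasi-likelihood test over 1471 circRNAs with a threshold of 0.05. CircRNAs of 1 host come from 1 gene and may share reads, so they are not independent of each other.

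In UUO against control, 6 of the 13 tested member circRNAs passed the threshold, 4 higher and 2 lower, where 4.35% of all tested circRNAs passed, 2.86% as higher and 1.5% as lower. The 4 higher circRNAs came from Glis3, Nfix, Cbfb and Aff3, and the 2 lower from Thrb and Bnc2. In AC against control 1 of 13 passed, a Glis3 circRNA that was higher, where 3.33% of all tested circRNAs passed, 1.9% as higher. Between UUO and AC 0 of 13 passed, where 0% of all tested circRNAs passed. The libraries of UUO and control did not overlap for 8 of the 13 (24.3% of all tested circRNAs), and those of AC and control for 8 of the 13 (30.7% of all tested circRNAs). The comparisons against control share the same 3 control libraries, so their values are set side by side and are not separate evidence.

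**Figure D1:**
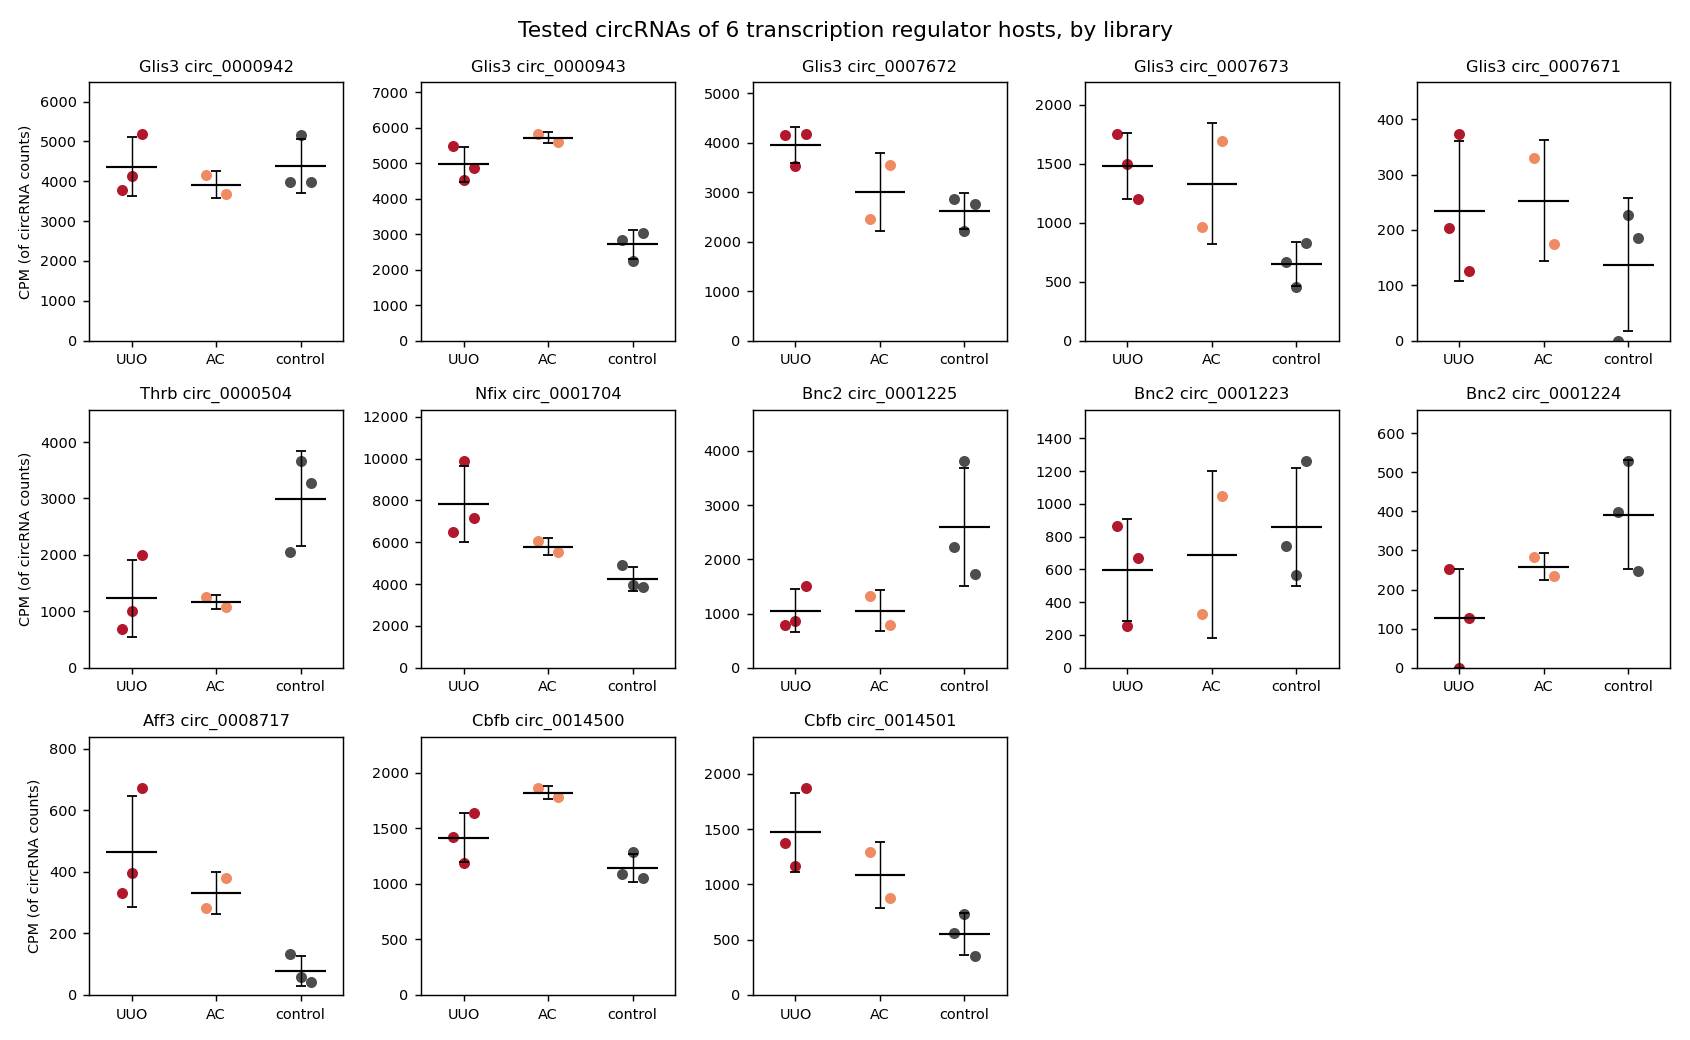
CPM of the 13 tested circRNAs in each library (points), with the group mean (line) and SD (error bars), for 3 UUO, 2 AC and 3 control libraries; the vertical axes start at 0 and differ between panels. The Thrb circRNA and Bnc2 circ_0001225 lie lower in all UUO and AC libraries than in all control libraries. Glis3 circ_0000943 and circ_0007673, Nfix, Aff3 and Cbfb circ_0014501 lie higher.

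The main Thrb circRNA (mmu_circ_0000504) fell 2.42-fold in UUO. It had 27, 43 and 95 counts in the UUO libraries, 53 and 37 in AC, and 77, 194 and 158 in control. In CPM it averaged 1228 ± 683 in UUO (SD, n = 3), 1164 ± 120 in AC (SD, n = 2) and 2992 ± 841 in control (SD, n = 3). UUO replicate 3 stood close to the lowest control library, and neither injury group overlapped with control. On the log2 scale this was -1.28 (SE 0.34, edgeR adjusted p = 0.0426). The AC value of -1.36 (SE 0.40) did not pass (edgeR adjusted p = 0.0846). Some of the 17 alternative settings left out an AC library and so kept every UUO and control library. A tally out of 17 is therefore no measure of the strength of a UUO call, here and below. The UUO call held in 10 of 17 alternative settings, with adjusted p from 7.45e-04 to 0.190. It was lost without UUO replicate 1 (log2 -0.99, edgeR adjusted p = 0.187), UUO replicate 2 (-1.13, 0.190), control replicate 2 (-1.12, 0.102) or control replicate 3 (-1.24, 0.131), with a minimum total of 50 counts (0.0529) and in a fit of UUO and control alone (0.0589). In AC the circRNA passed in 4 of 17 settings, among them DESeq2 and limma-voom, with adjusted p from 0.00293 to 0.275.

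The other 2 Thrb circRNAs were too sparse for a test. The first, mmu_circ_0005084, had 24 counts in all, of which 3, 0 and 0 were in UUO, 8 and 0 in AC, and 7, 3 and 3 in control. The second, mmu_circ_0005085, had 13 counts. These circRNAs come from other source transcripts than the main one. The main circRNA held 94.2 ± 3.92% of Thrb counts in UUO (SD, n = 3), 92.1 ± 11.2% in AC (SD, n = 2) and 95.1 ± 3.20% in control (SD, n = 3). Summed over the 3 circRNAs, Thrb had 30, 44 and 100 counts in UUO, 63 and 37 in AC, and 84, 198 and 165 in control. In a second fit, on counts summed per host over 1185 hosts, the Thrb sum was 2.51-fold lower in UUO (log2 -1.33, SE 0.32, edgeR adjusted p = 0.0151), where 6.5% of host sums passed, 3.71% as higher and 2.78% as lower. This call was lost without UUO replicate 1 (edgeR adjusted p = 0.119), UUO replicate 2 (0.112) or control replicate 3 (0.0805) and held in the other 14 of 17 settings, whose adjusted p went down to 1.30e-04. In AC the Thrb sum had a log2 fold change of -1.32 and an edgeR adjusted p of 0.0553, with 6 of 17 settings under the threshold and adjusted p from 0.00217 to 0.308. Without UUO replicate 3 or without control replicate 1 it passed in AC (edgeR adjusted p = 0.0324 and 0.0341).

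Bnc2 had a similar pair of values against control. Its main circRNA (mmu_circ_0001225) fell 2.45-fold in UUO, with 31, 37 and 72 counts in UUO, 56 and 27 in AC, and 84, 202 and 84 in control. All injured libraries were below all control libraries in CPM, and control replicate 2, at 3812 CPM, was far above the other 2 controls at 2233 and 1737 CPM. The mean level was 1054 ± 398 CPM in UUO (SD, n = 3), 1053 ± 376 CPM in AC (SD, n = 2) and 2594 ± 1084 CPM in control (SD, n = 3). On the log2 scale this was -1.29 (SE 0.34, edgeR adjusted p = 0.0426), and the AC value was -1.29 (SE 0.40, edgeR adjusted p = 0.113). The UUO call held in 10 of 17 settings, with adjusted p from 0.00144 to 0.188. It was lost without UUO replicate 1 (log2 -1.11, edgeR adjusted p = 0.188), UUO replicate 2 (-1.15, 0.187), UUO replicate 3 (-1.67, 0.0607), control replicate 1 (-1.38, 0.0608) or control replicate 2 (-0.91, 0.158), and with a minimum total of 50 counts (0.0529).

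The other 2 tested Bnc2 circRNAs did not pass in UUO or AC. The circRNA mmu_circ_0001223 had 34, 11 and 32 counts in UUO, 14 and 36 in AC, and 28, 30 and 61 in control, and its groups overlapped (log2 -0.52 in UUO, SE 0.48, and -0.34 in AC, SE 0.54). The circRNA mmu_circ_0001224 had 10, 0 and 6 counts in UUO, 12 and 8 in AC, and 15, 28 and 12 in control (log2 -1.63 in UUO, SE 0.78, and -0.60 in AC, SE 0.84). A single count of mmu_circ_0011803, in control replicate 2, was all that the fourth had. Counts of mmu_circ_0001225 per count of mmu_circ_0001223 ranged from 0.912 to 3.36 in UUO, from 0.75 to 4 in AC and from 1.38 to 6.73 in control, so the 3 ranges overlapped. The Bnc2 sum was 75, 48 and 110 counts in UUO, 82 and 71 in AC, and 127, 261 and 157 in control, with no overlap between injured and control libraries in CPM. It was 2.25-fold lower in UUO (log2 -1.17, SE 0.27, edgeR adjusted p = 0.00943), a call that held in 16 of 17 settings and was lost without UUO replicate 2 (log2 -0.90, edgeR adjusted p = 0.0828, the highest of a range that began at 2.51e-04). The AC value of the sum (log2 -0.98, SE 0.30, edgeR adjusted p = 0.0893) passed in 2 of 17 settings (adjusted p from 0.0238 to 0.293).

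Glis3 was the host with the most members, and its circRNAs did not all follow 1 pattern. The circRNA mmu_circ_0000943 rose 1.83-fold in UUO and 2.11-fold in AC. It had 216, 194 and 232 counts in UUO, 247 and 192 in AC, and 107, 119 and 147 in control, with every injured library above every control library. Its mean level was 4961 ± 482 CPM in UUO (SD, n = 3), 5710 ± 154 CPM in AC (SD, n = 2) and 2710.0 ± 414 CPM in control (SD, n = 3). On the log2 scale these were 0.87 in UUO (SE 0.19, edgeR adjusted p = 0.0178) and 1.08 in AC (SE 0.21, edgeR adjusted p = 0.0114). Each call held in 12 of 17 settings. The UUO call (range of adjusted p 3.69e-04 to 0.217) was lost without UUO replicate 1, 2 or 3 (edgeR adjusted p = 0.0714, 0.0661 and 0.0768). The AC call (range 2.05e-05 to 0.177) was lost in a fit of AC and control alone (edgeR adjusted p = 0.0623). It was also lost without AC replicate 1 or 2, where the spread of the single remaining AC library is taken from the other groups. Calls over all circRNAs in those fits are not given here, so the loss cannot be read as particular to this circRNA.

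The Glis3 circRNA mmu_circ_0000942 has the same source transcript as mmu_circ_0000943 and a similar total over all libraries (1492 against 1454 counts), and it did not pass. It had 149, 177 and 247 counts in UUO, 176 and 126 in AC, and 150, 274 and 193 in control, and the groups overlapped. Its log2 fold change was -0.0057 in UUO (95% interval -0.42 to 0.41) and -0.16 in AC (95% interval -0.64 to 0.31). The ratio of both counts within a library needs no library size. There were 1.45, 1.10 and 0.939 counts of mmu_circ_0000943 per count of mmu_circ_0000942 in UUO, 1.40 and 1.52 in AC, and 0.713, 0.434 and 0.762 in control. All 5 injured libraries had a higher ratio than all 3 controls. As a share of all Glis3 counts, mmu_circ_0000943 held 32.1 ± 2.44% in UUO (SD, n = 3), 39.5 ± 3.19% in AC (SD, n = 2) and 25.1 ± 3.58% in control (SD, n = 3). The share of mmu_circ_0000942 was 28.3 ± 4.07% in UUO, 27.1 ± 3.76% in AC and 40.6 ± 6.65% in control. These ratios and shares come from the same libraries as the fold changes and were not tested.

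**Figure D2:**
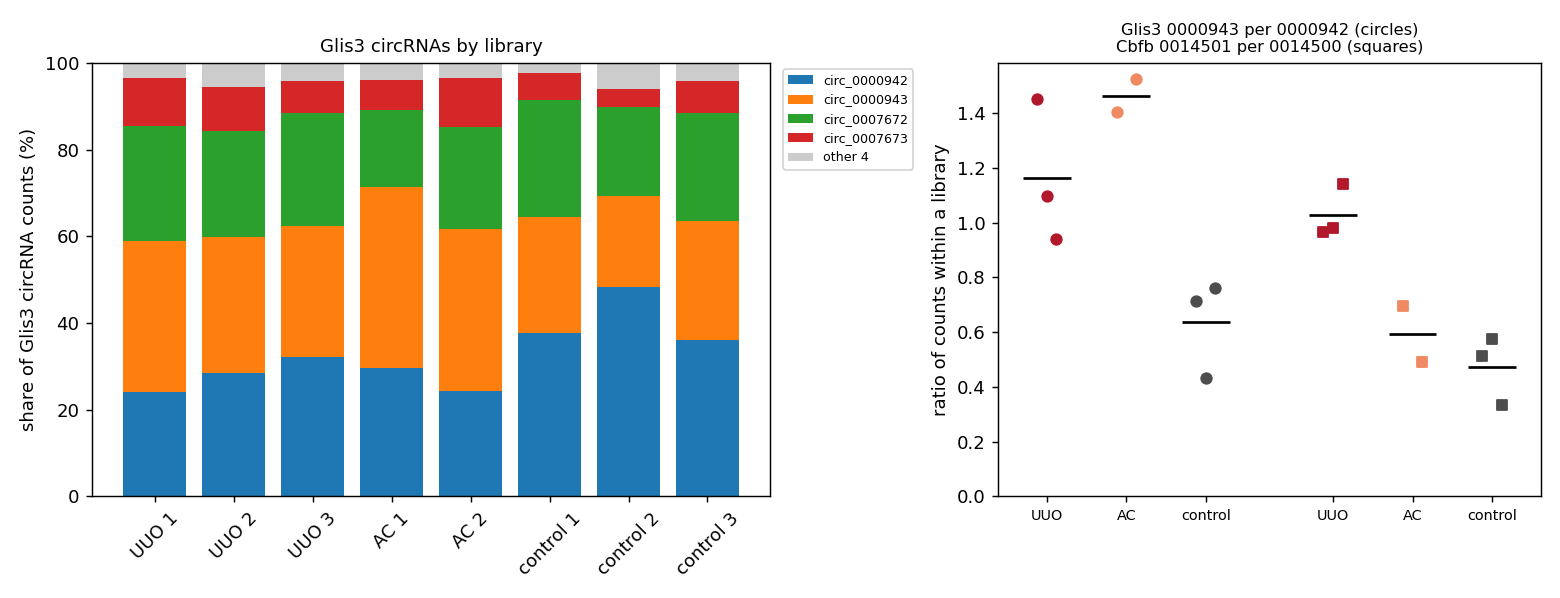
Left, the share of Glis3 circRNA counts (%) held by its 4 most counted circRNAs and by the other 4, in each of 8 libraries; right, the ratio of counts within a library for a Glis3 pair (circles) and a Cbfb pair (squares), with group means as lines. The Glis3 ratio lies between 0.939 and 1.52 in the UUO and AC libraries and between 0.434 and 0.762 in control, whereas the Cbfb ratio separates UUO (0.964 to 1.14) from both AC (0.492 to 0.696) and control (0.333 to 0.574).

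A further 2 Glis3 circRNAs had values above control in UUO without passing. The circRNA mmu_circ_0007673 had 69, 64 and 57 counts in UUO, 41 and 58 in AC, and 25, 24 and 40 in control, with every injured library above every control in CPM. Its log2 fold change was 1.19 in UUO (SE 0.33, edgeR adjusted p = 0.0515) and 1.03 in AC (SE 0.37, edgeR adjusted p = 0.189). In UUO it passed in 4 of 17 settings, among them DESeq2 and limma-voom, and without AC replicate 2 (edgeR adjusted p = 0.0445), with adjusted p from 0.0143 to 0.198. The circRNA mmu_circ_0007672 had 164, 151 and 199 counts in UUO, 104 and 122 in AC, and 108, 117 and 134 in control. It did not overlap between UUO and control but did between AC and control, with log2 fold changes of 0.60 (SE 0.22, edgeR adjusted p = 0.149) and 0.20 (SE 0.24). The fifth tested circRNA, mmu_circ_0007671, had 8, 16 and 6 counts in UUO, 14 and 6 in AC, and 0, 12 and 9 in control, and its intervals spanned 0 in both comparisons. The 3 untested Glis3 circRNAs had 58, 42 and 23 counts in all (mmu_circ_0007669, mmu_circ_0007668 and mmu_circ_0007670). Of these, mmu_circ_0007670 had 6, 5 and 6 counts in UUO, 2 and 0 in AC, and 1, 3 and 0 in control, too few for the filter.

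Summed over its 8 circRNAs, Glis3 had 619, 620 and 767 counts in UUO, 592 and 516 in AC, and 399, 568 and 536 in control. In CPM of the summed table this was 13860 ± 846 in UUO (SD, n = 3), 13188 ± 448 in AC (SD, n = 2) and 10078 ± 304 in control (SD, n = 3). The sum was 1.37-fold higher in UUO (log2 0.46, SE 0.12, edgeR adjusted p = 0.0258) and did not pass in AC (log2 0.39, SE 0.14, edgeR adjusted p = 0.143). The UUO call held in 12 of 17 settings (adjusted p from 0.00327 to 0.625) and was lost without UUO replicate 3 (edgeR adjusted p = 0.0810) or control replicate 1 (0.0533), and without a filter (0.0766). It was also lost with a replicate block and with the deposited constant as library size (log2 0.23, edgeR adjusted p = 0.625). In AC the sum passed in 2 of 17, with total counts as library size (0.0314) and in DESeq2 (0.0416), over a range from 0.0314 to 0.905. As a description over 8 libraries, log2 CPM of mmu_circ_0000943 had a Pearson r of 0.87 with mmu_circ_0007673 and of -0.39 with mmu_circ_0000942. The r of mmu_circ_0000942 was also negative with mmu_circ_0007673 (-0.52) and mmu_circ_0007672 (-0.21), and 0.065 with mmu_circ_0007671. Counts of mmu_circ_0007673 per count of mmu_circ_0000942 were likewise higher in UUO (0.231 to 0.463) and AC (0.233 to 0.460) than in control (0.0876 to 0.207). For mmu_circ_0007672 the AC and control ratios overlapped. None of these ratios was tested.

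Nfix was represented almost wholly by mmu_circ_0001704, which rose 1.85-fold in UUO. It had 255, 423 and 341 counts in UUO, 258 and 189 in AC, and 185, 209 and 187 in control. Its level was 7836 ± 1801 CPM in UUO (SD, n = 3), 5796 ± 400 CPM in AC (SD, n = 2) and 4243 ± 586 CPM in control (SD, n = 3). In CPM the libraries fell in 3 bands with no overlap, UUO above AC and AC above control, with UUO replicate 2 the highest at 9878 CPM. The log2 fold change was 0.89 in UUO (SE 0.19, edgeR adjusted p = 0.0178) and 0.45 in AC (SE 0.22, edgeR adjusted p = 0.354). The UUO call held in 12 of 17 settings, with adjusted p from 3.69e-04 to 0.216. It was lost without UUO replicate 2 (log2 0.70, edgeR adjusted p = 0.112), UUO replicate 3 (0.93, 0.0768) or control replicate 3 (0.79, 0.0887). In AC it passed in 0 of 17 settings. The other Nfix circRNA, mmu_circ_0015054, had 3 counts, all in control libraries. The Nfix sum thus had nearly the same values (log2 0.82 in UUO, SE 0.18, edgeR adjusted p = 0.00884). Its UUO call held in 14 of 17 settings and was lost without UUO replicate 2 (edgeR adjusted p = 0.0882) or control replicate 3 (0.0559). With the deposited constant as library size it was lost too (log2 0.62, edgeR adjusted p = 0.185, the highest of the settings).

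Of the 2 tested Cbfb circRNAs 1 passed in UUO, and the difference between them was not tested. The circRNA mmu_circ_0014501 rose 2.67-fold in UUO, with 54, 50 and 89 counts in UUO, 55 and 30 in AC, and 21, 39 and 17 in control. Its level was 1469 ± 361 CPM in UUO (SD, n = 3), 1085 ± 297 CPM in AC (SD, n = 2) and 549 ± 192 CPM in control (SD, n = 3), with both injury groups above control throughout. The log2 fold change was 1.41 in UUO (SE 0.34, edgeR adjusted p = 0.0284) and 0.98 in AC (SE 0.39, edgeR adjusted p = 0.237). The UUO call held in 10 of 17 settings, with adjusted p from 0.00391 to 0.168. It was lost without UUO replicate 1 (log2 1.47, edgeR adjusted p = 0.0693), UUO replicate 2 (1.57, 0.0752), UUO replicate 3 (1.18, 0.168), control replicate 1 (1.43, 0.0608) or control replicate 3 (1.14, 0.140).

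The circRNA mmu_circ_0014500, from another Cbfb source transcript, had 56, 51 and 78 counts in UUO, 79 and 61 in AC, and 41, 68 and 51 in control. It passed in neither comparison, with a log2 fold change of 0.31 in UUO (SE 0.26) and 0.67 in AC (SE 0.29, edgeR adjusted p = 0.301). Within a library there were 0.964, 0.980 and 1.14 counts of mmu_circ_0014501 per count of mmu_circ_0014500 in UUO, 0.696 and 0.492 in AC, and 0.512, 0.574 and 0.333 in control. The UUO ratios were above all others, and the AC ratios overlapped with control. These ratios were not tested. The third, mmu_circ_0014502, had 4 counts, 2 in AC replicate 1 and 2 in control replicate 3. The Cbfb sum had 110, 101 and 167 counts in UUO, 136 and 91 in AC, and 62, 107 and 70 in control. It did not pass in UUO (log2 0.70, SE 0.24, edgeR adjusted p = 0.0987) or AC (log2 0.74, SE 0.27, edgeR adjusted p = 0.154), although no injured library overlapped with control in CPM. Without control replicate 2 the sum passed in UUO (log2 0.86, edgeR adjusted p = 0.0367, the lowest of a range up to 0.460).

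Aff3 had a single circRNA (mmu_circ_0008717), which rose 6.12-fold in UUO from few counts. It had 13, 17 and 32 counts in UUO, 12 and 13 in AC, and 5, 3 and 2 in control, so that each injured library exceeded each control. Its level was 466 ± 181 CPM in UUO (SD, n = 3), 331 ± 68.2 CPM in AC (SD, n = 2) and 77.0 ± 49.1 CPM in control (SD, n = 3), and 1 count was worth between 18.9 and 29.2 CPM. On the log2 scale the rise was 2.61 in UUO (SE 0.64, 95% interval 1.27 to 3.96, edgeR adjusted p = 0.0284), and the AC value was 2.11 (SE 0.70, 95% interval 0.63 to 3.59, edgeR adjusted p = 0.147). The UUO call held in 9 of 17 settings, with adjusted p from 0.00636 to 0.201. It was lost in limma-voom (adjusted p = 0.161) and without UUO replicate 1 (log2 2.81, edgeR adjusted p = 0.0521), UUO replicate 2 (2.73, 0.0970), UUO replicate 3 (2.22, 0.201), control replicate 2 (2.43, 0.0821) or control replicate 3 (2.29, 0.111). In AC it passed in 0 of 17 settings.

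**Figure D3:**
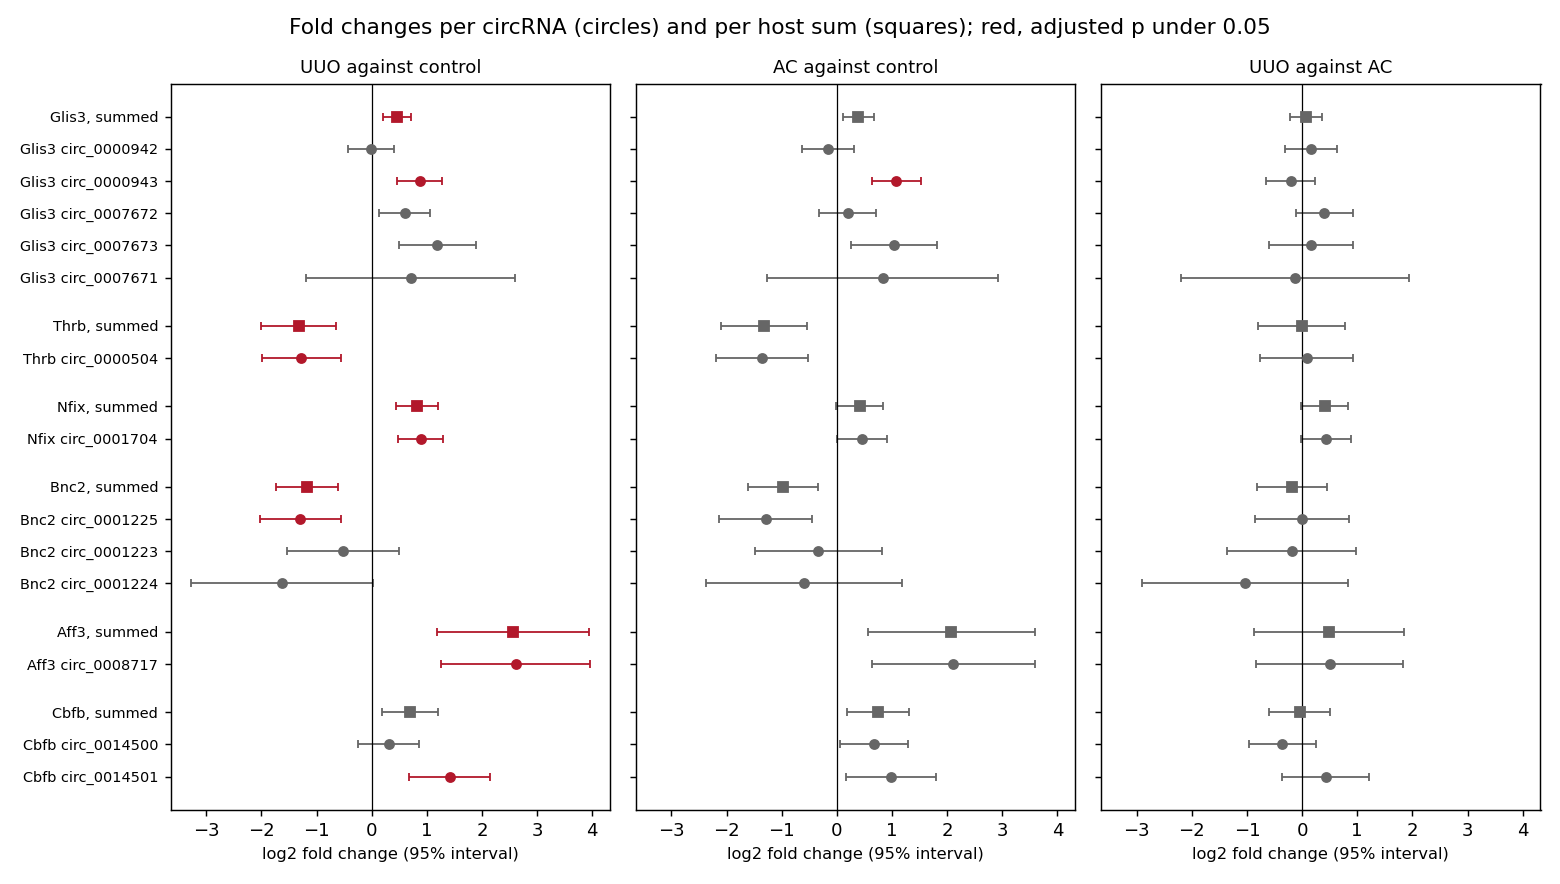
Log2 fold changes with 95% intervals of the 13 tested circRNAs (circles) and the 6 host sums (squares) for UUO against control, AC against control and UUO against AC; red marks an adjusted p under 0.05 over the whole table. In UUO against control 6 circles and 5 squares are red, in AC against control 1 circle and 0 squares, and in UUO against AC 0 of either.

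Set side by side, the host sums had log2 fold changes in UUO and AC of -1.33 and -1.32 for Thrb, -1.17 and -0.98 for Bnc2, 0.46 and 0.39 for Glis3, 0.82 and 0.41 for Nfix, 0.70 and 0.74 for Cbfb, and 2.56 and 2.08 for Aff3. On summed counts 5 of 6 hosts passed in UUO and 0 of 6 in AC, where 6.5% and 3.46% of all host sums passed. For the Aff3 sum (adjusted p 0.0233 in UUO, edgeR) the call held in 10 of 17 settings, with a highest adjusted p of 0.163. It was lost in limma-voom (0.128) and with the deposited constant as library size (0.0554), and without UUO replicate 2 (0.0561), UUO replicate 3 (0.163), control replicate 2 (0.0530) or control replicate 3 (0.0812). At an unadjusted p under 0.05, 5 of the 6 sums were counted in AC (15% of all host sums). In AC DESeq2 called 3 and limma-voom 1, and the shares of all host sums called by these tools are not given here. The median over all 1471 circRNAs was 0.016 in UUO and -0.015 in AC.

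Direct comparison of both injuries gave 0 of 13 member circRNAs and 0 of 6 host sums past the threshold in edgeR, DESeq2 and limma-voom, and 0 of 13 circRNAs had an unadjusted p under 0.05 (5.57% of all tested circRNAs). For Nfix mmu_circ_0001704 the log2 fold change of UUO over AC was 0.43 with a 95% interval from -0.024 to 0.89. For Cbfb mmu_circ_0014500 it was -0.36 (95% interval -0.97 to 0.25), and for Glis3 mmu_circ_0000943 -0.20 (95% interval -0.65 to 0.24). These 3 were the tested members whose UUO and AC libraries did not overlap, where 24.3% of all tested circRNAs did not. On summed counts the interval was -0.79 to 0.78 for Thrb, -0.82 to 0.45 for Bnc2, -0.21 to 0.36 for Glis3, -0.60 to 0.51 for Cbfb and -0.88 to 1.84 for Aff3. For the Nfix sum it was -0.018 to 0.84, which takes in a difference as large as its change of 0.82 in UUO against control. A missed threshold does not show that both injuries gave the same level.

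The 6 calls in UUO held with DESeq2's size factors and with total counts as library size (edgeR adjusted p at most 0.0426 and 0.0433). Besides counts, the authors deposited the counts divided by 1 constant per library. Scaling by that constant moved the log2 median over all tested circRNAs to -0.26 in UUO and -0.34 in AC, a shift that all circRNAs share. There the log2 fold changes in UUO were 0.61 for Glis3 mmu_circ_0000943, 0.63 for Nfix mmu_circ_0001704, 1.10 for Cbfb mmu_circ_0014501 and 2.37 for Aff3, all still positive and none past the threshold (edgeR adjusted p = 0.217, 0.216, 0.160 and 0.0676). The decreases were -1.61 for Thrb mmu_circ_0000504 and -1.64 for Bnc2 mmu_circ_0001225 and stayed past it. The Glis3 call in AC was also lost (log2 0.77, edgeR adjusted p = 0.177). In each of 17 alternative settings the 6 circRNAs called in UUO kept the sign of their fold change. Their UUO and control libraries did not overlap in CPM, so leaving out 1 library could hardly change that sign.

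**Figure D4:**
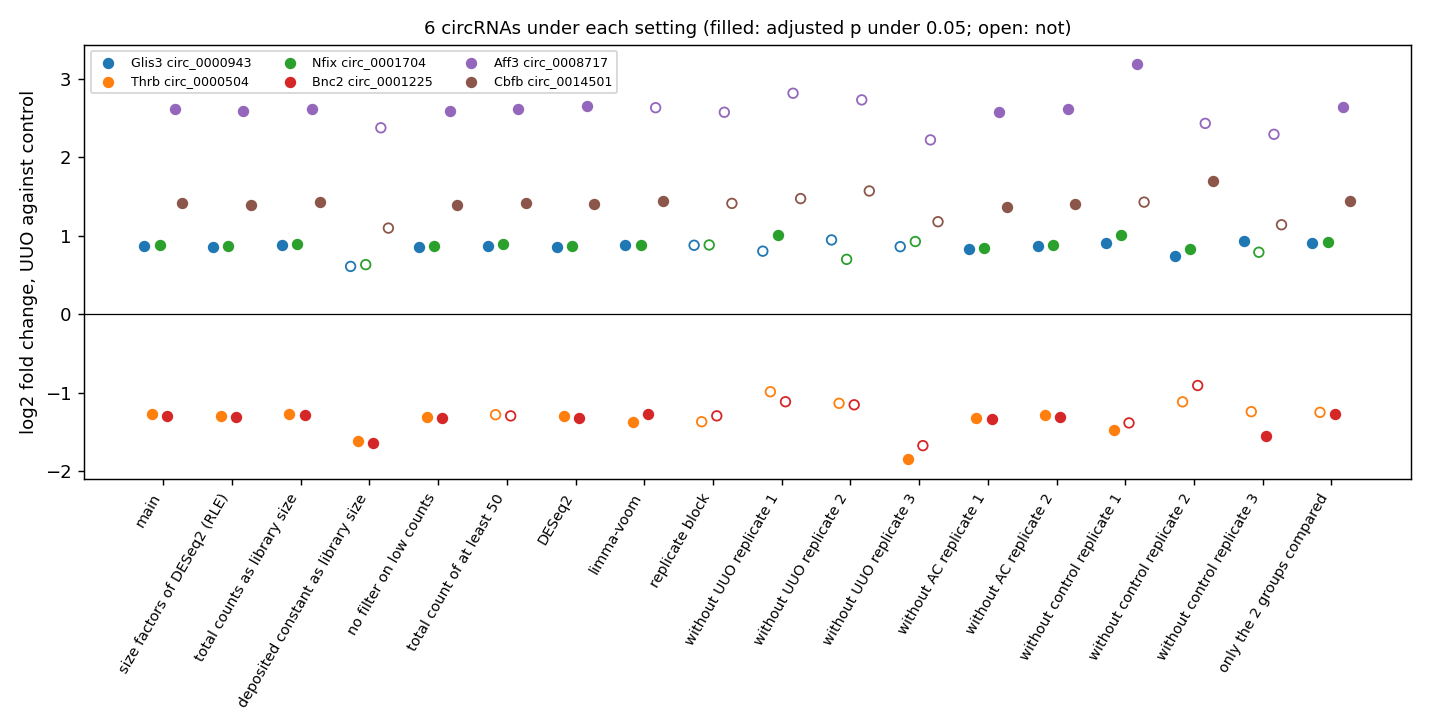
Log2 fold changes, UUO against control, of the 6 circRNAs that passed the threshold, as reported (main) and under 17 alternative settings; filled points have an adjusted p under 0.05 and open points do not. Each circRNA keeps its sign throughout, from -1.84 to -0.91 for the decreases and from 0.61 to 3.18 for the increases, and the points are all open with a replicate block and without UUO replicate 2.

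Few markers of kidney cell types were circRNA hosts, and differences between groups in their summed levels were not tested. For the tubule, 2 of 12 proximal tubule genes (Lrp2 and Slc4a4) had summed levels of 1197 to 1649 CPM in UUO, 1313 to 1555 CPM in AC and 1622 to 3435 CPM in control. For 2 of 10 genes of the loop of Henle and distal nephron (Klhl3 and Wnk1) the ranges were 406 to 747 CPM in UUO, 400 to 933 CPM in AC and 1985 to 2755 CPM in control. The 1 host among 11 genes of injured tubules, Dcdc2a, ranged from 3172 to 3569 CPM in UUO, from 2285 to 2479 CPM in AC and from 75.5 to 133 CPM in control. Of 12 fibroblast, 12 leukocyte and 9 collecting duct genes 0 were hosts of a listed circRNA, and podocyte and endothelial markers (1 of 8 and 2 of 8) had at most 20 and 10 counts in a library, with ranges that overlapped between all groups. The part of cell composition in the Thrb, Bnc2, Glis3, Nfix, Cbfb and Aff3 values was not tested.

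Lists of other transcription regulators were counted in the same way. Of 24 partners and paralogues of the 6 hosts, 13 were hosts of 31 circRNAs, of which 7 were tested. Of these 7, 0 passed in UUO and 0 in AC in edgeR, and 0 in DESeq2 and limma-voom, with 2 in UUO and 1 in AC at an unadjusted p under 0.05 (15.5% and 14.1% of all tested circRNAs). Their median log2 fold change was 0.056 in UUO and 0.099 in AC, beside 0.016 and -0.015 over all tested circRNAs. Those of the nuclear receptor coactivator Ncoa2 had log2 0.056 in UUO and 0.099 in AC (mmu_circ_0000011), and -0.22 and -0.31 (mmu_circ_0000010). The coactivator Ncoa3 (mmu_circ_0009572) had 661 CPM in UUO, 431 CPM in AC and 327 CPM in control. Log2 fold changes were 0.062 in UUO and 0.21 in AC for the corepressor Ncor1 (mmu_circ_0003216). For the Nfix paralogue Nfib (mmu_circ_0001221) they were -0.051 in UUO and -0.61 in AC. The Aff3 paralogue Aff4, a scaffold of the super elongation complex (mmu_circ_0000261), had 0 counts in all 3 UUO and both AC libraries, and 13, 0 and 17 counts in control, and did not pass. The paralogue Aff1 (mmu_circ_0011938) had log2 fold changes of 0.69 in UUO and 1.34 in AC. Of 17 genes of super elongation and pause release 5 were hosts, and Aff1 and Aff4 gave the only 2 tested circRNAs. Of these, 0 passed in edgeR, DESeq2 or limma-voom. In each comparison with control 1 had an unadjusted p under 0.05, where 15.5% of all tested circRNAs had one in UUO and 14.1% in AC. It was not the same circRNA: in UUO it was that of Aff4 (log2 -6.33, SE 2.76), and in AC that of Aff1 (log2 1.34, SE 0.59).

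Of 51 transcription factors of nephron and tubule identity, 7 were hosts and 2 circRNAs were tested, of which 0 passed in edgeR, DESeq2 or limma-voom and 0 had an unadjusted p under 0.05. These were from the orphan receptor Esrrg (mmu_circ_0008546, log2 -0.94 in UUO, SE 0.68, and -1.09 in AC, SE 0.79) and the mitochondrial coactivator Ppargc1a (mmu_circ_0012680, -0.65 in UUO and -0.12 in AC). Of 50 injury and repair transcription factors, 9 were hosts, and 1 of 7 tested circRNAs passed as higher in each comparison with control (2.86% of all tested circRNAs in UUO and 1.9% in AC), with 2 in UUO and 1 in AC at an unadjusted p under 0.05 (15.5% and 14.1% of all). The 1 was that of the NF-kappaB subunit Nfkb1 (mmu_circ_0010477), at 1589.7 CPM in UUO, 1978 CPM in AC and 791 CPM in control (edgeR adjusted p = 0.0433 in UUO and 0.0220 in AC). The median of those 7 was 0.35 in UUO and 0.60 in AC. Of 11 genes of thyroid hormone and glucocorticoid handling, 2 were hosts with a tested circRNA, and 0 passed in edgeR, DESeq2 or limma-voom, with 0 in UUO and 1 in AC at an unadjusted p under 0.05 (15.5% and 14.1% of all tested circRNAs). The circRNA of Slc16a10, a transporter of aromatic amino acids and thyroid hormones (mmu_circ_0002192), had a log2 fold change of -0.84 in UUO (SE 0.43) and -0.31 in AC (SE 0.48), and that of the glucocorticoid receptor co-chaperone Fkbp5 (mmu_circ_0006655) had 0.45 in UUO (SE 0.61) and 1.44 in AC (SE 0.65).

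For the circRNA of each host with the highest total over all libraries, the circRNAs of other hosts with the most similar profile were looked up by Pearson r of log2 CPM over the 8 libraries. For Glis3 that rank rests on the control libraries, since mmu_circ_0000943 had more counts than mmu_circ_0000942 in UUO (642 against 573) and in AC (439 against 302). They are the highest among all tested circRNAs of other hosts, and the 8 libraries share the group differences, so they describe likeness only. Nearest to Thrb mmu_circ_0000504 were circRNAs of Npas2 (r = 0.97), Eed (0.96) and Ptprd (0.95). For Bnc2 mmu_circ_0001225 they were Canx (0.98), Qk (0.95) and Gnptg (0.93). Nfix mmu_circ_0001704 was nearest to Pik3r3 (0.94), Amotl1 (0.92) and 2610307P16Rik (0.91), and Glis3 mmu_circ_0000942 to Qser1 (0.93), Trpm7 (0.91) and Kcnh5 (0.88). For Cbfb mmu_circ_0014500 the nearest were Gas2 (0.94), Sh2d4b (0.92) and Epn2 (0.91), and for Aff3 mmu_circ_0008717 they were Sept9 (0.96), a circRNA with no host name (mmu_circ_0000712, 0.96) and Eif4e3 (0.96).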

How the data were processed

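Total RNA of 8 kidney libraries was sequenced. Whole-number counts per circRNA and library were deposited by the authors without normalization. In the second deposited table, of unit signal, the authors had divided each count by 1 constant per library (8718 to 11941), of unstated meaning. HISAT2, StringTie and mm9 are named, without a role, per the submitters' processing notes. Not given in the sources used here: the circRNA caller and how reads shared by circRNAs of 1 host were counted. The reference at hand is GENCODE M21 and RefSeq on GRCm38, so no coordinates were used; 20 of 21 members' source transcripts matched there under the same symbol, and 1 similar circRNA with a number as host name was named (Sept9) from its source transcript.

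Counts were tested with edgeR 4.0.16 (R 4.3.3, quasi-likelihood, TMM, default filter with a minimum count of 10 and total of 15, all 8 libraries in 3 groups, Benjamini-Hochberg over all 1471 circRNAs). The same was done for sums over 1185 hosts, leaving out 32 rows with no host. Standard errors are the log2 fold change, without sign, divided by the root of the F statistic. The biological coefficient of variation was 0.413. No library pair of 1 group agreed within sampling noise (chi-square per degree of freedom 2.91 to 5.58). Every tested member was named, with the 3 most similar circRNAs of other hosts for the most counted circRNA of each host. Alternatives used DESeq2 1.42.0, limma 3.58.1, other library sizes and filters, a replicate block, 2 groups alone and each library left out. Members and lists were chosen with earlier results of these data known.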

Additional observations from a re-analysis of the deposited data

How the results depend on the processing

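Fold changes of the tested members and host sums were recomputed under 17 settings in each comparison (15 or 16 for Glis3 mmu_circ_0007671, which missed the filter in the rest), 964 values in all. Of these, 878 stayed on the same side of the threshold, 2 had no adjusted p in DESeq2, 63 lost a call, 21 gained one and 0 called values changed sign; 37 values that passed in neither case changed sign. In UUO against control, the 6 member circRNAs past the threshold became 2 with the deposited constant as library size and 0 with a replicate block, and the 5 host sums became 2 and 3. Leaving out 1 library gave 0 to 7 circRNAs and 1 to 5 host sums. In AC against control, the 1 circRNA became 0 with the deposited constant, with a replicate block and in a fit of 2 groups, 3 without a filter, 3 in DESeq2 and 2 in limma-voom. The 0 host sums became 1 with total counts as library size, with the deposited constant and in limma-voom, 2 without a filter and 3 in DESeq2. Leaving out 1 library gave 0 to 2 circRNAs and 0 to 1 host sums. Over all circRNAs in UUO against control the 64 calls were 103 in DESeq2, 37 with the deposited constant and 12 with the replicate block. The 49 calls in AC were 62, 29 and 5, and 14 in a fit of AC and control alone. A fit of UUO and control alone gave 77 calls of 1113 circRNAs in UUO. With a minimum total of 50 counts there were 60 calls in UUO and 46 in AC, of 1508 circRNAs. In limma-voom the calls were 73 in UUO and 39 in AC, and without a filter 73 and 58 of 6315 circRNAs. Without UUO replicate 1, 2 or 3 they were 26, 10 and 15 in UUO and 35, 32 and 38 in AC. Without control replicate 1, 2 or 3 they were 55, 40 and 25 in UUO and 34, 38 and 11 in AC. These fits tested 1393 to 1426 circRNAs. How many of all host sums passed under these settings is not given here. The labels do not state what same-numbered libraries share beyond the number. Of 7 such pairs, 0 had a correlation of deviations over 0.1 (range -0.11 to 0.042). Deviations from the mean of 2 or 3 libraries constrain each other, so these correlations cannot show whether libraries were paired. The cause of the lost calls was not tested, and fits with 1 library left out also had fewer libraries. With 40865 to 65145 counts a library, 8 of the 21 circRNAs were too sparse to test.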
